A study of Danio rerio with 24 samples.

Results

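Hemoglobin carries oxygen in red blood cells as a tetramer of alpha and beta globin chains, each holding a heme with an iron atom. Zebrafish replace embryonic chains (hbae, alpha; hbbe, beta) with adult chains (hbaa, alpha; hbba, beta) as red cells of the first, embryonic wave give way to those of the definitive wave. Red cells of fish keep their nucleus and RNA in the circulation, and in adult zebrafish they are made mainly in the kidney marrow, and any organ sampled with its blood carries their globin mRNA.

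The hemoglobin chains were followed here in zebrafish liver through every microarray probe annotated with a gene symbol beginning with hbaa, hbae, hbba or hbbe, which gave 5 of the 16340 probes tested. They were 2 adult chains, hbaa1 (alpha) and hbba1 (beta), and 3 embryonic ones, hbbe1.2 (beta), hbae3 (alpha) and a probe whose annotation names hbae1.1, hbae1.2 and hbae1.3 together (alpha), called here the shared hbae1 probe. The zebrafish annotation used for names holds 15 such genes, 11 in one cluster and 4 in another. The first cluster runs hbaa2, hbba2, hbaa1, hbba1, hbbe1.1, hbae1.1, hbbe1.2, hbae1.2, hbbe1.3, hbae1.3, hbae3, so that the measured adult and embryonic chains were neighbours, and none of the 4 genes of the second cluster (hbae4, hbbe3, hbbe2 and hbae5) had a probe among these 5. A spotted oligonucleotide may also take up mRNA of a close copy, such as hbaa2 at the hbaa1 probe, and copies were not told apart.

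Adult zebrafish were kept in water with 200 µg/L HgCl2 (mercury(II) chloride) or in water without it for 8, 24, 48 or 96 h. The 8 groups held 3 arrays each, 24 in all, and each array carried liver RNA pooled from 4 fish, so that a value belongs to a pool. Strain, sex of the pools and individual fish are not given in the sources used here. Liver RNA was labelled with Cy5 and a reference, RNA pooled from wild-type males and females, with Cy3, without a dye swap. Values are log2 ratios of liver over reference after loess normalization within each array. The reference is itself pooled fish RNA, so a ratio of 0 means the level of that pool and not absence, and ratios of different probes were not set against each other as levels. Median spot brightness ran from 253 to 902 in Cy5 and from 421 to 1207 in Cy3 across arrays, 66.1 to 95% of spots stood above local background in Cy5 and 34.2 to 90.2% in Cy3, and arrays of one group correlated with r from 0.292 to 0.713 over all probes. Median Cy5 background was 72 to 114 on control arrays. It was 147, 183.5 and 149 on exposed arrays of 8 h and 155 on exposed replicate 1 of 24 h. On the other exposed arrays it was 54 to 83. Control arrays of 96 h and control replicate 3 of 48 h had median Cy5 of 683 to 902, the other controls 253 to 380. The part of such array differences in the gaps between exposed and control livers was not tested. Of 6 hepatocyte markers with a probe, 5 were above background in Cy5 on all 24 arrays, apoa1a among them.

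All 5 hemoglobin chain probes were above background in Cy5 on all 24 arrays, and none was saturated in any of them. In the reference channel, hbaa1, hbba1 and hbae3 were above background on all 24 arrays, the shared hbae1 probe on 22 and hbbe1.2 on 20 (9 of the control arrays and 11 of the exposed ones).

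Both adult chains and the embryonic beta chain hbbe1.2 were lower in livers of HgCl2-treated fish, while neither embryonic alpha probe passed the test at any time. The adult chains were not distinguishable from controls at 8 h, lay 3.35- to 5.17-fold below them at 24 and 48 h and 2.32- to 2.38-fold below them at 96 h, whereas hbbe1.2 was lower by 1.57- to 2.12-fold at all 4 times. The 96 h calls of both adult chains were lost on leaving out any of 4 single arrays. In the liver channel alone, after scaling between arrays, hbaa1 stood at 0.16 (log2, adjusted p = 0.849 in limma) and hbba1 at -0.13 (adjusted p = 0.881) at that time. The 8 h call of hbbe1.2 was lost on leaving out any of 17 of the 24 arrays, and its calls at 8, 24 and 48 h were lost in the liver channel alone. Without background correction its calls at 8, 48 and 96 h were lost. In bulk tissue, fewer red cells in a liver and less globin mRNA per red cell cannot be told apart.

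The adult alpha chain hbaa1 gave log2 ratios of 1.87, 0.93 and 0.97 in the control pools at 8 h and of 0.81, 1.06 and 0.95 in the exposed pools. At 24 h the controls stood at 2.28, 2.62 and 2.61 and the exposed pools at 0.21, -0.11 and 0.85. The groups overlapped at 8 h and lay far apart at 24 h. At 48 h the controls gave 2.94, 3.10 and 3.05 and the exposed pools -0.23, 0.95 and 1.28. At 96 h the values were 1.85, 2.30 and 2.75 against 1.89, 0.43 and 0.84. Exposed replicate 1 at 96 h thus reached the lowest control of its time, and the groups overlapped again. The difference of HgCl2 from control was -0.32 ± 0.37 (SE, n = 3 a group; adjusted p = 0.791) at 8 h, -2.19 (adjusted p = 0.00083) at 24 h, -2.37 (adjusted p = 0.000503) at 48 h and -1.25 (adjusted p = 0.0304) at 96 h in limma with Benjamini-Hochberg adjustment over all 16340 probes, with the same SE at each time. These are 4.55-, 5.17- and 2.38-fold lower ratios at the last 3 times. The last of them came without a lower Cy5 intensity after scaling between arrays.

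The adult beta chain hbba1, which pairs with the alpha chain in the adult tetramer, took nearly the same course. The 8 h controls gave 1.91, 0.69 and 0.90, the 24 h controls 1.74, 2.33 and 2.44, the 48 h controls 2.56, 2.71 and 2.20, and the 96 h controls 1.39, 2.17 and 2.41. The 8 h exposed pools gave 0.31, 0.87 and 0.79, those of 24 h 0.50, 0.34 and 0.43, those of 48 h -0.56, 0.67 and 0.96, and those of 96 h 1.1, 0.49 and 0.73. Exposed and control pools did not overlap at 24, 48 or 96 h. The differences were -0.51 ± 0.35 (adjusted p = 0.594), -1.74 (adjusted p = 0.0031), -2.13 (adjusted p = 8e-04) and -1.21 (adjusted p = 0.0269) on the log2 scale in limma, or 3.35-, 4.39- and 2.32-fold lower at the last 3 times.

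**Figure D1:**
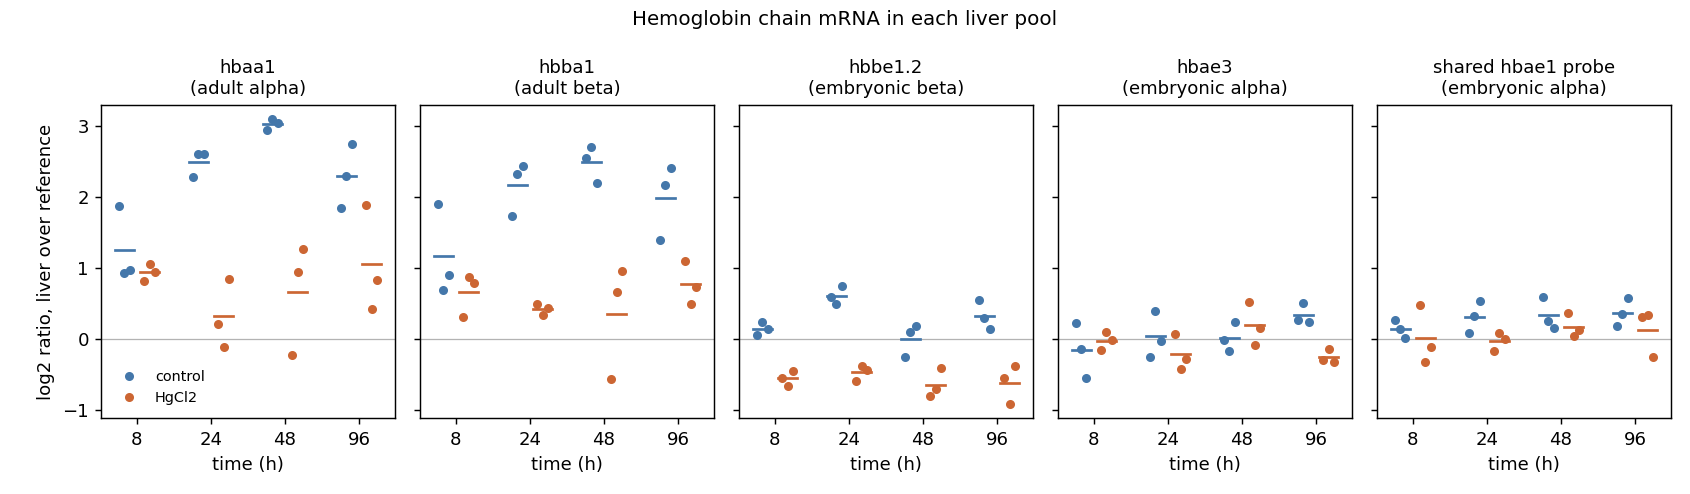
Log2 ratio of liver over reference (vertical axis) for the 5 hemoglobin chain probes in each of the 24 liver pools against time in hours, with a dot for each array and a bar at the mean of 3. Control hbaa1 lay between 0.93 and 3.10 and exposed hbaa1 between -0.23 and 1.89, while all 12 exposed arrays of hbbe1.2 lay below its lowest control.

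The embryonic beta chain hbbe1.2, a gene otherwise known from the first red cells of the embryo, was the chain with the cleanest separation of the groups. Its 8 h controls gave 0.06, 0.24 and 0.14, its 24 h controls 0.60, 0.50 and 0.74, its 48 h controls -0.26, 0.10 and 0.18, and its 96 h controls 0.54, 0.29 and 0.14. Its 8 h exposed pools gave -0.55, -0.66 and -0.44, those of 24 h -0.60, -0.38 and -0.43, those of 48 h -0.81, -0.70 and -0.41, and those of 96 h -0.54, -0.92 and -0.38. All 12 exposed arrays lay below the lowest of the 12 controls, which held for 0.349% of all probes. The differences were -0.70 ± 0.17 (adjusted p = 0.0443), -1.08 (adjusted p = 0.000373), -0.65 (adjusted p = 0.0189) and -0.94 (adjusted p = 0.000848) in limma, or 1.62-, 2.12-, 1.57- and 1.92-fold lower. It was 1 of the 13 probes (0.0796%) that were lower at all 4 times, which for hbbe1.2 rests on its 8 h call (lost in 17 of the 24 single omissions and in 5 of the 12 other alternatives). Before correction, median Cy5 of hbbe1.2 at 8 h was 213, 228 and 356 on control arrays and 367, 435 and 329 on exposed ones. Local Cy5 background there was 69, 58 and 78 against 148, 205 and 165. Without background correction the 8 h difference was -0.32 (adjusted p = 0.539 in limma). At 24 h its Cy3 was not above background on control replicates 1 and 3, whose ratios were 0.60 and 0.74. The part of background in these differences was not tested.

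The embryonic alpha chain hbae3 stayed close to the reference in both groups, with control values from -0.55 to 0.51 (median 0.11) and exposed values from -0.42 to 0.53 (median -0.12). Its differences were 0.13, -0.25, 0.18 and -0.59 (SE 0.21) at 8, 24, 48 and 96 h. At 96 h the exposed pools (-0.29, -0.15 and -0.32) all lay below the controls (0.27, 0.51 and 0.24), with an adjusted p of 0.0641 in limma. The shared hbae1 probe ran from 0.01 to 0.60 (median 0.26) in controls and from -0.32 to 0.48 (median 0.06) in exposed pools, with differences of -0.12, -0.35, -0.17 and -0.24 (SE 0.20) and adjusted p-values from 0.309 to 0.863. At 24 h its exposed pools (-0.17, 0.08 and 0.00) all lay below its controls (0.09, 0.33 and 0.53).

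Counted over the family, 1 of the 5 probes was lower at 8 h and 3 of 5 at each of 24, 48 and 96 h, and none was higher at any time. Over all probes tested, 0.349% were lower at 8 h, 4.23% at 24 h, 3.37% at 48 h and 5.42% at 96 h. The 3 probes lower at 24, 48 and 96 h were hbaa1, hbba1 and hbbe1.2 each time, a pattern that 185 of all probes (1.13%) showed. Exposed pools lay wholly below control pools for 1 member at 8 h (8.49% of all probes), 4 at 24 h (13.1%), 3 at 48 h (13.8%) and 3 at 96 h (17.1%).

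Averaged over the 4 times, with 12 exposed against 12 control arrays, hbaa1 was lower by 2.89-fold (log2 -1.53 ± 0.19, adjusted p = 3.24e-06), hbba1 by 2.64-fold (-1.40 ± 0.18, adjusted p = 5.06e-06) and hbbe1.2 by 1.79-fold (-0.84 ± 0.083, adjusted p = 2.14e-07) in limma. The embryonic alpha probes gave -0.13 ± 0.10 for hbae3 (95% interval -0.35 to 0.08, adjusted p = 0.351) and -0.22 ± 0.10 for the shared hbae1 probe (-0.43 to -0.01, adjusted p = 0.108). Of all probes, 13.8% were lower and 17.7% higher in this average, 31.5% in either direction. In an exact two-sided permutation of treatment within each time (160000 regroupings), p was 0.00015 for hbaa1, 5e-05 for hbba1, 1.25e-05 for hbbe1.2 (the smallest this design can give), 0.267 for hbae3 and 0.0308 for the shared hbae1 probe.

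**Figure D2:**
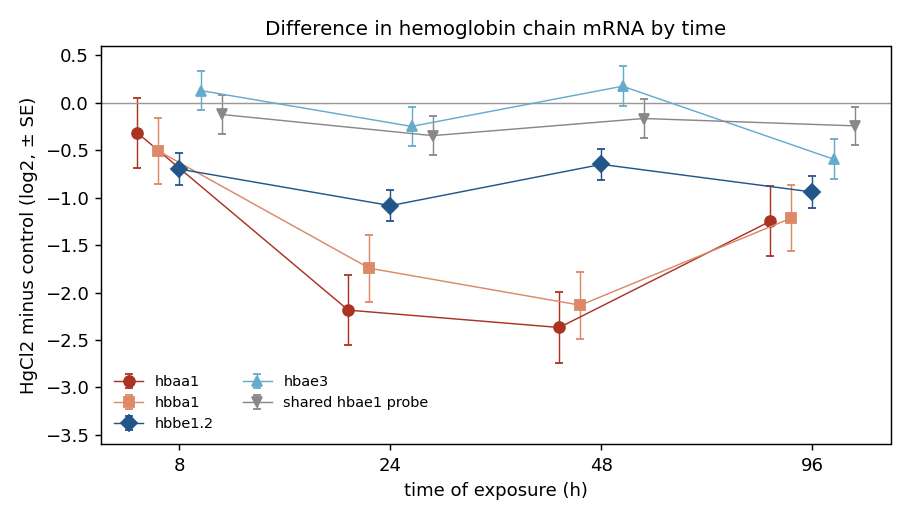
Difference between HgCl2-treated and control livers in log2 ratio (vertical axis, ± SE of the limma fit, 3 arrays a group) against time of exposure in hours, 1 line for each hemoglobin chain probe. The adult chains hbaa1 and hbba1 lay near -2 at 24 and 48 h, hbbe1.2 between -0.65 and -1.08 at all times, and the embryonic alpha probes between 0.18 and -0.59.

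The 96 h calls of the adult chains rested on single arrays. Without control replicate 2, control replicate 3, exposed replicate 2 or exposed replicate 3 of that time, the adjusted p in limma was 0.0857, 0.131, 0.124 and 0.106 for hbaa1 and 0.1, 0.118, 0.0825 and 0.0758 for hbba1. For hbbe1.2, the 8 h call was lost on leaving out 17 of the 24 arrays, every array of 8 h among them, with adjusted p up to 0.166 and a difference between -0.75 and -0.65. Its 48 h call was lost without control replicate 2 (0.0793) or 3 (0.0628) or exposed replicate 1 (0.0968) or 2 (0.0577) of 48 h. The 24 and 48 h calls of hbaa1 and hbba1, the 24 and 96 h calls of hbbe1.2 and all 3 averages held in each of the 24 omissions.

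The course over time was tested as a change of the difference against that at 8 h. For hbaa1 the difference departed from its 8 h value by -1.87 ± 0.53 at 24 h (adjusted p = 0.298), by -2.05 at 48 h (adjusted p = 0.128) and by -0.93 at 96 h (adjusted p = 0.396) in limma. For hbba1 it departed by -1.24, -1.63 and -0.71 (adjusted p = 0.496, 0.198 and 0.513). None of the 5 members passed, and 0, 0.0918 and 0.991% of all probes did at the 3 later times, so that a dependence on time was not shown for the chains one by one.

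Control livers did not hold a level course by value. Control means of hbaa1 were 1.26, 2.50, 3.03 and 2.30 at 8, 24, 48 and 96 h, and exposed means were 0.94, 0.32, 0.66 and 1.05. From 8 h to 24 and 48 h, controls rose more by value than exposed pools fell. The wider gap at these times thus lay more in the controls by value. Control hbaa1 thus stood 1.25, 1.78 and 1.04 above its own 8 h value at the later times (adjusted p = 0.426, 0.239 and 0.295) and control hbba1 1.00, 1.32 and 0.82 above (adjusted p = 0.564, 0.406 and 0.415) in limma. In Cy5 alone the 96 h values of these controls turned sign (-0.51 for hbaa1 and -0.535 for hbba1, neither passing). No member passed in controls over time, where 0.00612, 0 and 0.214% of all probes did. With 3 pools a time, a drift of the adult chains in controls was neither shown nor bounded tightly. In the Cy3 reference channel alone, control arrays of 96 h were lower than those of 8 h by -1.55 for hbaa1 (adjusted p = 0.0164) and -1.36 for hbba1 (adjusted p = 0.0072) in limma, where 19.6% of all probes differed.

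In the ratio, the adult chains differed from the embryonic ones in the size of the response, while in Cy5 alone 5 of the 6 pairs did not pass (for example hbaa1 minus hbae3 at -0.29, adjusted p = 0.537 in the exact permutation). The difference between an adult and an embryonic probe on the same array was compared between exposed and control arrays with an exact two-sided permutation of treatment within time, for all 6 pairs that 2 adult and 3 embryonic probes allow. This difference was lower in exposed arrays by a mean of -1.40 for hbaa1 against hbae3 (exact permutation p = 0.00015, adjusted over 6 pairs 3e-04) and -1.26 for hbba1 against hbae3 (p = 5e-05, adjusted 3e-04). Against the shared hbae1 probe it was -1.31 for hbaa1 (exact permutation p = 0.000238, adjusted 0.000356) and -1.18 for hbba1 (p = 0.00015, adjusted 3e-04). Adult chains therefore lay further below their controls than either embryonic alpha probe did in the ratio. The embryonic spots had lower ranges of median Cy5 on control arrays (hbbe1.2 213 to 3529, hbae3 555 to 3429, shared hbae1 probe 302 to 1222). Those of the adult chains were 946 to 7102 for hbaa1 and 1203 to 8056 for hbba1. The part of spot brightness in the gaps was not tested.

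Against the embryonic beta chain the gap was smaller. It was -0.69 for hbaa1 (exact permutation p = 0.0177, adjusted 0.0212) and -0.56 for hbba1 (p = 0.0281, adjusted 0.0281). By time, the hbaa1 gap to hbbe1.2 was 0.38 at 8 h, -1.1 at 24 h, -1.72 at 48 h and -0.31 at 96 h. At 8 h hbbe1.2 was thus the more affected chain by value, and at 24 and 48 h hbaa1 was. Without control replicate 1 of 8 h the adjusted p rose to 0.0506 for hbaa1 and 0.0759 for hbba1, and the hbba1 gap was also lost without control replicate 3 of 96 h (0.0567) or exposed replicate 1 of 8 h (0.0557). Both gaps were also lost with plain background subtraction. The average difference of hbbe1.2 itself moved with the background handling, from -0.49 without correction to -1.0 with plain subtraction.

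**Figure D3:**
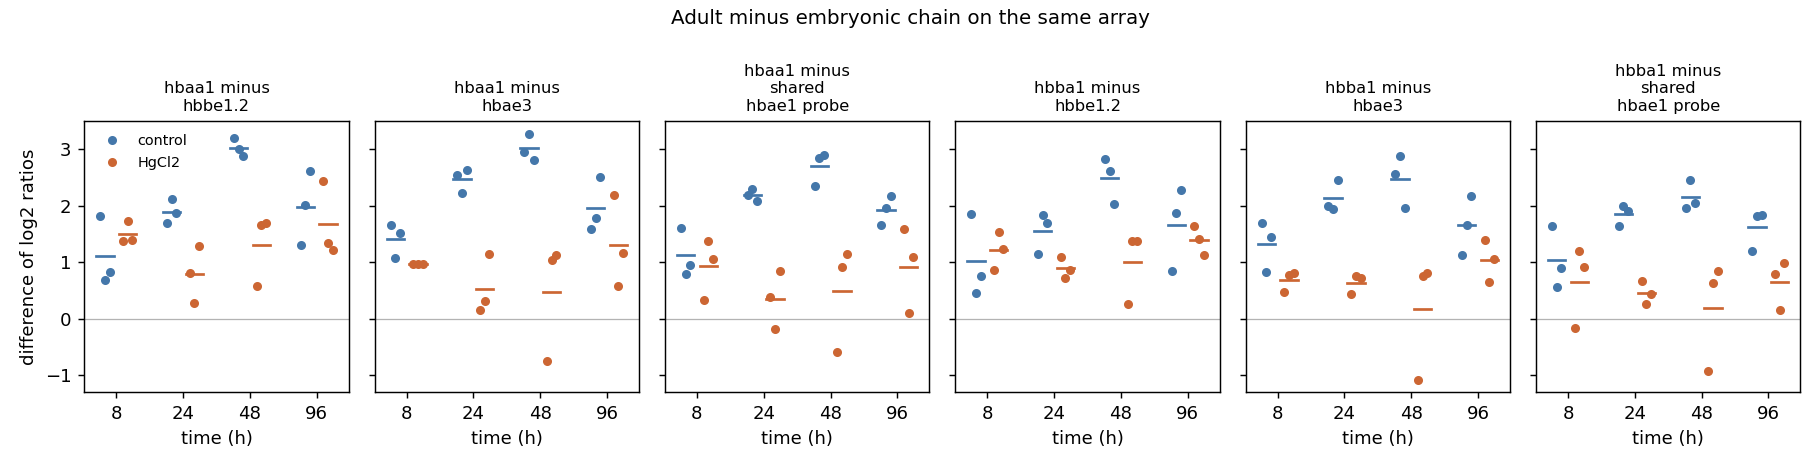
Difference of log2 ratios of an adult and an embryonic hemoglobin chain probe on the same array (vertical axis) against time in hours for all 6 pairs, with a dot for each array and a bar at the mean of 3. Only the shift between exposed and control dots is read, since the height depends on the probes, and it averaged -1.40 for hbaa1 minus hbae3 and -0.56 for hbba1 minus hbbe1.2.

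The 2 dye channels were then read apart, since Cy3 carried the pooled reference RNA and not the liver RNA of that array. Whether the same preparation of reference RNA served every array is not stated in the sources used here. Channel values were rebuilt from the loess ratio and the mean intensity of both dyes, scaled between arrays. They are thus not scanner readings, and each depends in part on the other dye. The lower level of the adult chains in exposed than in control livers at 24 and 48 h was present in the liver channel alone. Log2 Cy5 intensity was lower at 24 h by -1.80 for hbaa1 (adjusted p = 0.0199) and -2.04 for hbba1 (adjusted p = 0.00836), and at 48 h by -2.02 (adjusted p = 0.0102) and -2.54 (adjusted p = 0.00261) in limma. Of all probes, 3.57% at 24 h and 5.02% at 48 h were lower in Cy5. No member differed in Cy3 at 8, 24 or 48 h, where 12.7, 1.94 and 0.569% of all probes did. No member was lower in Cy5 at 8 h, where 7.48% of all probes were.

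At 96 h the channels went another way for the adult chains. In Cy5 alone hbaa1 gave 0.16 (adjusted p = 0.849 in limma) and hbba1 -0.13 (adjusted p = 0.881), so that neither passed as lower in the scaled liver channel. Before scaling, median Cy5 of hbaa1 was 1898, 6739 and 2911 on control arrays and 2945, 2432 and 2722 on exposed ones. For hbba1 it was 3058, 6435 and 4692 against 3493, 3042 and 2344. Median Cy5 over the spots of these arrays was 683, 902 and 721 against 570, 565 and 546. The reference channel was higher on exposed than on control arrays, by 1.41 for hbaa1 (adjusted p = 0.0367) and 1.08 for hbba1 (adjusted p = 0.0377), at a time when 13.6% of all probes differed in Cy3. Log2 Cy3 of hbaa1 was 8.27, 9.10 and 7.90 on the control arrays of 96 h against 9.15, 10.31 and 10.05 on the exposed ones. It was also low, at 8.13, on control replicate 3 of 48 h, where the other controls of that time stood at 10.16 and 10.46. The ratio of hbaa1 on that array was 3.05, beside 2.94 and 3.10, and without it the 48 h differences were -2.36 for hbaa1 (adjusted p = 0.0024) and -2.28 for hbba1 (adjusted p = 0.00189). The part of the reference channel in the 96 h ratios of the adult chains was not tested further.

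For hbbe1.2 the liver channel alone passed at 96 h (-1.65, adjusted p = 0.00161) and in the average over times (-0.77, adjusted p = 0.0018), but not at 8, 24 or 48 h, with adjusted p of 0.824, 0.212 and 0.393. Log2 Cy5 of hbbe1.2 ran from 7.97 to 10.45 in controls and from 7.64 to 8.70 in exposed pools, and its Cy3 from 7.91 to 10.16 and from 8.19 to 9.37. Its channels overlapped between the groups where its ratio did not. The embryonic alpha chain hbae3 was lower in Cy5 at 96 h (-0.82, adjusted p = 0.0261, as were 11.3% of all probes) and on average (-0.53, adjusted p = 0.0035), with its Cy3 lower on average as well (-0.39, adjusted p = 0.046), while the average Cy3 of hbaa1 was higher (0.71, adjusted p = 0.0324), at 16.8% of all probes differing. Averaged over times, Cy5 alone was lower by -0.82 for hbaa1 (adjusted p = 0.01) and -1.32 for hbba1 (adjusted p = 0.000162), so that 4 of 5 members were lower, against 15.3% of all probes, and the shared hbae1 probe stood at 0.04. The gap between adult and embryonic chains held for hbba1 against the shared hbae1 probe in Cy5 alone, and the other 5 pairs did not pass there.

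**Figure D4:**
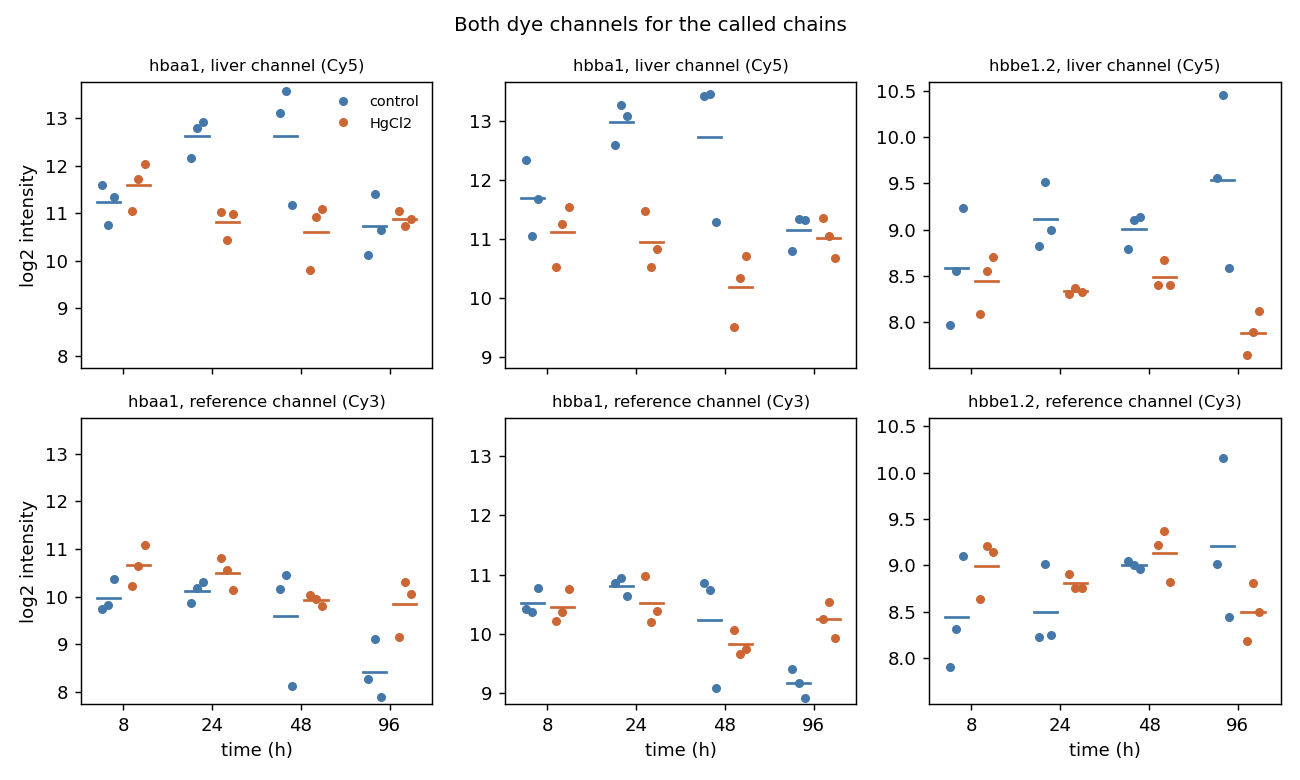
Log2 intensity, scaled between arrays, in the liver channel (Cy5, upper row) and the reference channel (Cy3, lower row) against time in hours for hbaa1, hbba1 and hbbe1.2. Each array has a dot, with a bar at the mean of 3, and the 2 rows of a column share a scale. Exposed dots lay below control dots in Cy5 at 24 h for both adult chains, while at 96 h the groups were alike in Cy5 for these and the Cy3 of control arrays was low.

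The adult chains varied together from pool to pool within a group. Deviations of hbaa1 and hbba1 from their group means correlated with Pearson r = 0.927 and Spearman rho = 0.895 over the 12 control arrays (permutation p = 1e-05, the smallest that 100000 resamples give, adjusted 2e-04, and 0.0029 adjusted for rho). Over the 12 exposed arrays r was 0.831 (permutation p = 0.00054, adjusted 0.0054) and rho 0.881 (adjusted 0.0029). Without the 2 arrays farthest from the median, r was 0.851 and 0.748. The deviations share an array, its dyes and its normalization. Of 20 such relations among the 5 members, in controls and exposed pools apart, the other 18 did not pass, so that the embryonic chains were not shown to vary with the adult ones between pools.

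As a description, the pattern of hbaa1 over all 24 arrays was most like that of hbba1 (r = 0.961), ahead of every other probe with a single gene name, while hbbe1.2 gave 0.686, the shared hbae1 probe 0.481 and hbae3 0.263. Outside the family the highest were hoxc12b (0.845), fxr (0.838), nme2b.2 (0.813), natd1 (0.81) and gon4lb (0.808). All 5 were lower in exposed livers, by -0.54, -0.65, -0.52, -0.95 and -1.58 on the log2 scale, so that treatment enters these correlations. With group means subtracted the leading genes were others, gstp1.2 (0.73), asph (0.729), cdc14b (0.717), hoxb6b (0.708) and mgst3b (0.697).

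Other genes of red cells had smaller differences by value than the adult chains. Of 6 red cell membrane and enzyme genes with a probe, 3 were lower in the average over times (13.8% of all probes were) and none higher, with a list median of -0.15 against 0.00 over all probes. The 3 were dmtn, a protein of the spectrin skeleton under the membrane (-0.44 ± 0.11, adjusted p = 0.00388), cahz, the red cell carbonic anhydrase of zebrafish (-0.34, adjusted p = 0.0133), and sptb, the beta spectrin of red cells (-0.31, adjusted p = 0.00367) in limma. Catalase (cat), which hepatocytes express too, gave 0.17 (adjusted p = 0.422). Neither ca2 (0.03, adjusted p = 0.873) nor rhag (0.02, adjusted p = 0.907) passed, so that only 3 of the 6 were below control by value. All 6 were above background in Cy5 on all 24 arrays, and the mean log2 ratio of the list on an array ran from -0.19 to 0.19 (median -0.07) in controls and from -0.46 to 0.05 (median -0.13) in exposed pools. In Cy5 alone cahz passed (-0.49, adjusted p = 0.000928), while dmtn (-0.36, adjusted p = 0.105) and sptb (-0.24, adjusted p = 0.143) did not. With the authors' values sptb did not pass (-0.21, adjusted p = 0.0734 in limma), while dmtn and cahz did.

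Of 7 genes for factors that direct red cell formation, 2 were lower (13.8% of all probes were) and none higher on average over times, with a median of -0.30. Lower were klf1, the erythroid Krüppel-like factor that activates adult beta globin in mammals (-0.43, adjusted p = 0.00187), and gata1a, the master factor of the red cell line (-0.30, adjusted p = 0.0153). The values of lmo2 (-0.40, adjusted p = 0.261) and klf17 (-0.31, adjusted p = 0.472) did not pass. Only 1 of these 7 genes was above background in Cy5 on all 24 arrays, and the dimmest on 10. In Cy5 alone neither klf1 (-0.22, adjusted p = 0.122) nor gata1a (-0.43, adjusted p = 0.0602) passed, and with the authors' values klf1 did not (adjusted p = 0.0948).

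Heme synthesis, which must keep pace with globin in a developing red cell, was mixed over its 4 measured genes. One of them, fech, which inserts iron into the porphyrin ring, was lower (-0.53, adjusted p = 0.000732), although Cy5 alone gave 0.13. Another, cpox, which acts earlier in the pathway, was higher (0.36, adjusted p = 0.00201 in limma). In Cy5 alone cpox did not pass (0.30, adjusted p = 0.187), and it was above background there on 18 of the 24 arrays. Neither urod (-0.20, adjusted p = 0.122) nor alas2 (-0.03, adjusted p = 0.873) passed, the latter being the enzyme that starts heme synthesis in red cells. Of the 2 measured genes of iron supply, slc11a2, an importer of ferrous iron, was lower (-0.62, adjusted p = 1.17e-05) and glrx5, a glutaredoxin of iron-sulfur cluster assembly in mitochondria, higher (0.30, adjusted p = 0.0354), a call lost on leaving out 13 of the 24 arrays in turn. In Cy5 alone slc11a2 gave -0.40 (adjusted p = 0.069). The only other globin with a probe, the neuroglobin ngb, gave -0.05 (adjusted p = 0.827).

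Genes listed for hemoglobin and heme clearance, a list that also holds genes of iron storage, transport and export, went the opposite way in the ratio. Breakdown of red cells was not tested. All 5 with a probe were higher on average over times (17.7% of all probes were), with a median of 0.81. They were led by fth1a, a ferritin chain that stores iron (1.84 ± 0.34, adjusted p = 0.00032), cp, the ferroxidase ceruloplasmin (1.59, adjusted p = 2.75e-06), slc40a1, the iron exporter ferroportin (0.81, adjusted p = 0.00181), and hp, haptoglobin, which binds free hemoglobin in plasma (0.42, adjusted p = 0.0326, lost on leaving out 7 of the 24 arrays in turn). In Cy5 alone fth1a (1.49, adjusted p = 0.00519) and cp (1.43, adjusted p = 5.41e-07) passed, while slc40a1 gave 0.08 (adjusted p = 0.768) and hp 0.32 (adjusted p = 0.246). The fifth, transferrin (tfa), gave 0.38 with loess and -0.09 with median centring. These genes are hepatocyte products too, several of them of the acute phase response.

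Markers of other cells in the tissue moved as well, and their part in the globin values was not tested. Of 6 hepatocyte genes, 3 were higher and none lower (17.7 and 13.8% of all probes). Apolipoprotein apoa1a gave 0.86 (adjusted p = 3.87e-06), tfa 0.38 and apoa1b 0.34 (lost in 11 of the 24 single omissions), the last pair turning negative under median centring. The retinol carrier rbp4 gave -0.72 (adjusted p = 0.0822) and passed as lower with median centring (-1.08, adjusted p = 0.0165) and with the authors' values (-1.19, adjusted p = 0.0156). Of 10 leukocyte genes, 5 were higher and 1 lower (17.7 and 13.8% of all probes), the 5 being led by lgals9l1 (0.97), mpeg1.1 (0.75), mpx (0.74) and lyz (0.72). The lower one was cd74a (-0.34, adjusted p = 0.0209), which also passed in Cy5 alone (-0.69, adjusted p = 0.000914). Not passing in the ratio were cd74b (0.28), spi1b (0.09), ptprc (0.02) and csf1ra (-0.11). Of these, csf1ra passed as lower in Cy5 alone (-0.67, adjusted p = 0.00153 in limma). There spi1b passed as higher (0.42, adjusted p = 0.0497), though it was above background in Cy5 on only 6 arrays. Among the 5 higher genes, lgals9l1 (adjusted p = 0.00129 in limma) and mpeg1.1 (adjusted p = 0.00171) passed in Cy5 alone. There mpx (adjusted p = 0.126), lyz (adjusted p = 0.133) and the fifth gene, lcp1 (0.12, adjusted p = 0.578), did not. With the authors' values mpeg1.1 (0.49, adjusted p = 0.427 in limma) and mpx (adjusted p = 0.0845) did not pass, while lgals9l1, lyz and lcp1 did. In Cy5 mpeg1.1 was above background on 15 of the 24 arrays. The mean of the list on an array ran from -0.21 to 0.29 in controls and from 0.01 to 1.01 in exposed pools. All 4 exocrine pancreas genes were lower on average (cpa5 -1.40, cpb1 -0.74, cel.2 -0.71, prss1 -0.48), against 13.8% of all probes. None was below control by value at 8 h (0.04, 0.67, 1.26 and 0.31). The calls of cel.2 and prss1 were lost on leaving out 17 and 10 of the 24 arrays in turn. Both were also lost with median centring (adjusted p = 0.0648 and 0.0503 in limma) and with the authors' values (0.0645 and 0.0553). In Cy5 alone cel.2 did not pass (adjusted p = 0.26) and prss1 did (0.0385). Pancreas tissue lies within and beside the liver of zebrafish, and the mean of its list ran from -1.14 to 0.91 in controls and from -1.74 to 0.36 in exposed pools. Of 3 endothelial genes, tie1 alone was higher (0.34, adjusted p = 0.0151), and the only thrombocyte gene, thbs1b, gave -0.46 (adjusted p = 0.113).

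A list for the hypoxia response, which also holds subunits of the hypoxia-inducible factors themselves, was read beside the oxygen carrier. Of 10 genes with a probe, 7 were higher on average over times (17.7% of all probes were) and none lower, with a median of 0.83. Among these 7, epas1a, hif1al, arnt2 (0.89, adjusted p = 3.73e-06 in limma) and hif1ab (0.77, adjusted p = 0.000176) are such subunits. The call with the smallest value, pfkfb3 (0.30, adjusted p = 0.0397), named for its losses, was lost in 12 of the 24 single omissions, with median centring (adjusted p = 0.056) and with the authors' values (adjusted p = 0.18). In Cy5 alone pfkfb3 passed as higher (1.28, adjusted p = 1.63e-06 in limma). The leading ones were igfbp1a, whose secreted product binds insulin-like growth factors (2.70 ± 0.24, adjusted p = 6.81e-08), epas1a, a hypoxia-inducible factor (1.5, adjusted p = 1.02e-05), hif1al, another factor of that family (1.44, adjusted p = 1.34e-06), and ldha, the lactate dehydrogenase of glycolysis (1.09, adjusted p = 1.55e-05) in limma, all of which also passed in Cy5 alone. Not passing were epoa (0.155, adjusted p = 0.61), egln3 (0.03, adjusted p = 0.96) and vegfaa (-0.04, adjusted p = 0.865) in limma. Of the 24 arrays, epoa was above background in Cy5 on 7 and vegfaa on 6. In Cy5 alone epoa passed as higher (0.35, adjusted p = 0.0442). Oxygen and blood content of the livers were not analysed here.

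**Figure D5:**
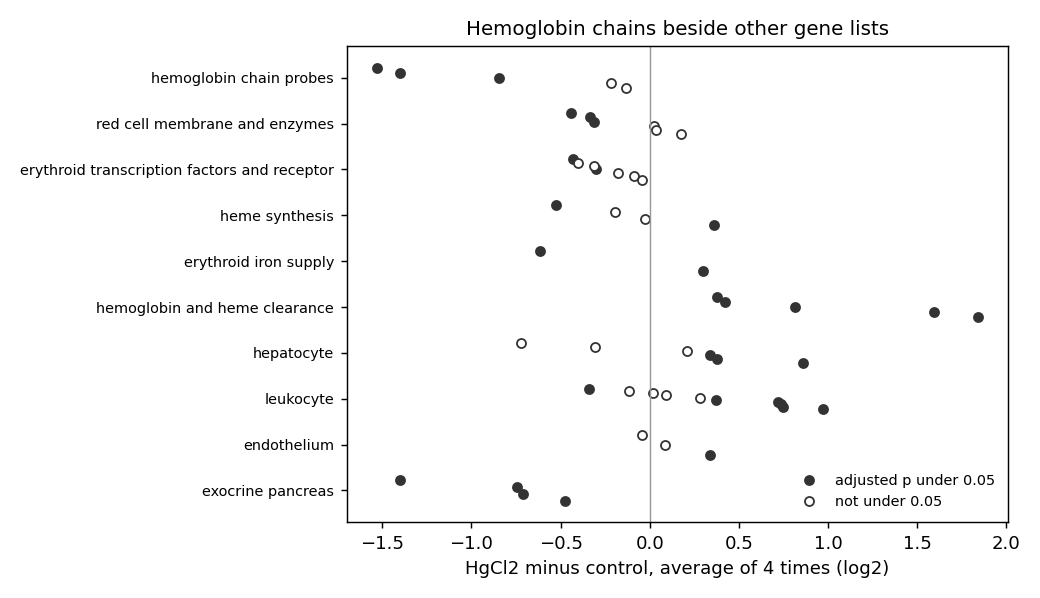
Difference between HgCl2-treated and control livers averaged over 4 times (horizontal axis, log2) for each measured gene of 10 groups, named on the vertical axis; filled dots had a limma adjusted p under 0.05. The adult chains at -1.53 and -1.40 lay beyond every red cell and erythroid gene shown, the lowest of which was slc11a2 at -0.62, and all 5 clearance genes lay above 0.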

How the data were processed

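Per the labels and the study's methods, the deposited GenePix files hold scanner intensity per spot for Cy5 (liver) and Cy3 (reference), and the series' table holds values on a log2 scale. The study's methods state Lowess normalization, whereas the authors' log2 values were read here as ratios of background-subtracted means scaled by 1 constant per array. The values behind that reading are not given here. The authors' values served as an alternative and correlated with the loess ratios used here at r from 0.572 to 0.92 by array. Median intensities were background-corrected (normexp, offset 50) and loess-normalized per array, with 172 beta-actin control spots at weight 0 and left out of tests, and fitted with limma 3.58.1 (R 4.3.3) as 8 group means on 24 arrays (16 residual degrees of freedom). P-values were Benjamini-Hochberg adjusted over 16340 probes (threshold 0.05). Channels were Aquantile-scaled. Figures used Python 3.11.15 and matplotlib 3.10.9. The fit was checked on simulated data. A spot was above background where its median exceeded background by 2 SD.

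Of 16512 spots, 6088 carried 1 gene symbol, 75 several and 10349 none in the probe table used here. Gene order came from the RefSeq table of assembly GRCz12tu; no coordinates or sequences were used. The members and the 12 gene lists (58 of 137 genes with a probe, the brightest per gene) were chosen with earlier results of these data known. All members were described. Up to 4 genes of a list, those with the largest absolute average difference, were named, and further genes where they limited the reading. The genes most correlated with hbaa1 were named too. Alternatives covered background, normalization, channels, the test, array weights, replicate number and each array left out. The number of arrays limits precision.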

Additional observations from a re-analysis of the deposited data

How the results depend on the processing

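The averages over 4 times of hbaa1, hbba1 and hbbe1.2 passed under every alternative run for them and on leaving out each array. Over the alternatives hbaa1 ran from -1.61 to -0.82, hbba1 from -1.44 to -1.27 and hbbe1.2 from -1.0 to -0.49. Over the single omissions they ran from -1.635 to -1.418, from -1.476 to -1.285 and from -0.8764 to -0.8053. The cause of the changes below was not tested. Adjusted p-values in this paragraph are from limma unless another test is named. With the Cy5 channel alone, 5 calls were lost: hbbe1.2 at 8 h (-0.14), 24 h (-0.77) and 48 h (-0.52), hbaa1 at 96 h (0.16, sign turned) and hbba1 at 96 h (-0.13). Values that never passed turned sign for hbaa1 at 8 h (0.36), hbae3 at 8 h (-0.35) and 48 h (-0.20), and the shared hbae1 probe at 8 h (0.61), 48 h (0.14) and on average (0.037). Calls gained were hbae3 at 96 h (-0.82) and on average (-0.53), and the changes against 8 h of hbaa1 at 48 h (-2.38) and hbbe1.2 at 96 h (-1.51). The changes of hbbe1.2 at 48 h (-0.38) and hbba1 at 96 h (0.45) turned, as did control values against 8 h of hbbe1.2 at 48 h (0.42), hbaa1 at 96 h (-0.51) and hbba1 at 96 h (-0.535). The pairs hbaa1 minus hbbe1.2 (-0.052), hbae3 (-0.29) and the shared hbae1 probe (-0.86), and hbba1 minus hbbe1.2 (-0.55) and hbae3 (-0.79), no longer passed. Without background correction hbbe1.2 was not called at 8 h (-0.32), 48 h (-0.54) or 96 h (-0.44), nor hbaa1 at 96 h (-0.82), while hbae3 was at 96 h (-0.55). With plain subtraction the hbaa1 and hbba1 gaps to hbbe1.2 (-0.61 and -0.45) were lost. With the authors' values hbba1 at 96 h (-1.14) and its gap to hbbe1.2 (-0.44) were lost. With only the 6 arrays of a time, hbbe1.2 at 8 h (-0.70, adjusted p = 0.202) and 48 h (-0.65, 0.0875) and hbaa1 at 96 h (-1.25, 0.0883) were lost and hbae3 at 96 h (-0.59, 0.0439) was gained, as it was with array weights (-0.58, 0.0319). The methods' t-test after Benjamini-Hochberg called none of the values that limma called at single times: hbaa1 (-2.19, -2.37 and -1.25 at 24, 48 and 96 h), hbba1 (-1.74, -2.13 and -1.21) and hbbe1.2 (-0.70, -1.08, -0.65 and -0.94 from 8 to 96 h), with adjusted p from 0.0629 to 0.342. Unadjusted, it lost hbaa1 at 96 h (0.0695) and gained hbae3 at 96 h (0.00442).

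All probes called at 8, 24, 48 and 96 h numbered 159, 1771, 1414 and 2108. At 8 h they were 412 with plain subtraction, 256 with median centring, 2650 in Cy5 alone, 557 with the authors' values and 0 with 6 arrays alone, where 1616 had an unadjusted t-test p under 0.05. They were 3711 at 96 h in Cy5 alone, 845 at 48 h with the authors' values, 940 and 900 at 24 and 48 h with 6 arrays alone, and 2122 at 48 h with array weights. The t-test gave 1, 12, 2 and 706 after adjustment and 1616, 3085, 3132 and 4171 before it. Leaving out each array gave 20 to 222 at 8 h, 987 to 2282 at 24 h, 603 to 1674 at 48 h and 1073 to 2295 at 96 h.

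Leaving out each array in turn gave hbbe1.2 from -0.75 to -0.65 at 8 h and -0.78 to -0.56 at 48 h, hbaa1 from -1.67 to -0.94 and hbba1 from -1.51 to -1.01 at 96 h. The gaps to hbbe1.2 ran from -0.78 to -0.60 for hbaa1 and from -0.66 to -0.45 for hbba1. Values of hbae3 ran from -0.068 to 0.32 at 8 h and -0.65 to -0.51 at 96 h (passing without control replicate 3 of 8 h), and its control values against 8 h from -0.0047 to 0.38 at 24 h and -0.020 to 0.37 at 48 h. The shared hbae1 probe ran from -0.36 to 0.045 at 8 h and -0.28 to -0.17 on average (passing without exposed replicate 1 of 8 h, adjusted p = 0.0291 in limma). Changes against 8 h ran, for that probe, from -0.39 to 0.0096 at 24 h, -0.21 to 0.19 at 48 h and -0.29 to 0.11 at 96 h, and at 48 h from -0.083 to 0.14 for hbbe1.2 and -0.14 to 0.24 for hbae3.

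Equal replicate numbers were not shown to mark paired pools: deviations of same-numbered arrays correlated with r from -0.0322 to 0.189 over 12 pairs, 1 of them over 0.1. The level that paired pools would give is not known, so this check cannot exclude pairing. With the replicate number as a block hbbe1.2 at 8 h was -0.70 with an adjusted p of 0.0562 in limma, and no other call of a hemoglobin chain changed. Taking every adult against every embryonic probe gave the same 6 pairs, as each gene had 1 probe. Leaving out dim probes or setting saturated spots to missing changed no call of a chain.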
